A study of Mus musculus with 12 samples.

Results

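The 10 genes described here encode transcription factors that switch on, or hold back, the osteoclast program: Nfatc1 and Nfatc2 of the NFAT family, Mitf, Tfec, Tfeb and Tfe3, which make up the MiT/TFE family, the repressor genes Prdm1, Bhlhe40 and Bhlhe41, and Myc. They are defined by a list of gene names, and all 10 of 10 were found by symbol among the 54532 genes of the expression table. All 10 also passed the filter on low values that left 11335 genes for testing, which asked for 1 FPKM or more in any 3 libraries. FPKM is the number of sequenced fragments per kilobase of a gene's exons, scaled per library.

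Osteoclasts are the multinucleated cells that dissolve bone, and they form from macrophage precursors when RANKL binds its receptor RANK. RANK signalling through NF-κB and AP-1, together with calcium oscillations driven by ITAM receptors, induces NFATC1 and activates it through the phosphatase calcineurin, and NFATC1 then acts on its own gene and on genes for resorption and fusion. MITF and its relatives bind E-boxes in many of the same genes and in lysosomal genes. PRDM1, also called BLIMP1, represses genes such as Irf8 and Bcl6 that restrain NFATC1, BHLHE40 and BHLHE41 are E-box repressors, and MYC drives growth and metabolism early in osteoclast formation. Lipopolysaccharide (LPS), which coats Gram-negative bacteria, is sensed by TLR4 on both cell types.

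The series holds 12 RNA libraries from cultures of wild-type mouse bone marrow, in 4 groups of 3. Marrow cells were first expanded with CMG, a source of M-CSF, and all groups stayed in it. Untreated macrophages received no RANKL and no LPS, LPS-treated macrophages received no RANKL and 100 ng/mL LPS for 3 h on day 5, untreated osteoclasts were formed with RANKL, and LPS-treated osteoclasts were formed with RANKL and then given the same LPS. The sample labels give RANKL as 100 ng/mL, while the growth protocol gives a range. Strain, age, sex and number of mice are not given in the sources used here, nor whether the 3 libraries of a group came from separate mice, so the p-values measure only the spread between these libraries.

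Libraries held between 15651770 and 20281456 assigned reads, recovered from the FPKM values. The labelled cell types matched the osteoclast markers (Ctsk, Acp5, Calcr, Mmp9, Dcstamp, Ocstamp, Atp6v0d2, Itgb3 and Oscar). These 9 summed to between 9.21 and 24.4 FPKM in macrophages and between 29089 and 32079 FPKM in osteoclasts. The 8 macrophage markers summed to between 1730.5 and 1829.7 FPKM in osteoclasts, against 2101 to 3244 FPKM in macrophages. Cd68 and Csf1r made up most of the osteoclast sum. Cd68 ran against the labels, at 1325 to 1447 FPKM in osteoclasts and 635 to 795 FPKM in macrophages. Csf1r was at 286 to 316 FPKM in osteoclasts and 415 to 444 FPKM in macrophages. The other 6 were lower in osteoclasts: Mrc1 was at most 3.41 FPKM there and at least 290.4 FPKM in macrophages, and Adgre1 was at most 73.1 FPKM and at least 424 FPKM. The sum of 9 stromal markers was between 27.7 and 38.5 FPKM in macrophages, mainly Col1a1 and Col1a2, with each of the other 7 at 1.56 FPKM or less and Lepr at 0 without LPS, against 0.643 to 1.58 FPKM in osteoclasts, where Cxcl12 was at 0. Mitochondrial genes took between 1.27% and 1.62% of reads in macrophages and between 5.16% and 6.18% in osteoclasts. The part of these differences in the results was not tested. In such bulk samples, fewer cells of a type and less RNA per cell cannot be told apart.

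All values are scaled to the typical gene, so that a change is relative to that gene. Limma, a linear model fitted to log2(FPKM + 1) of all 11335 genes, gave the log2 differences, and a gene was called where its Benjamini-Hochberg adjusted p was under 0.05. The added 1 shrinks differences at low FPKM, so a log2 difference can understate the fold between mean FPKM given beside it. Rescaling each library to TPM, a common sum for all libraries, put the median of all genes at -0.55 on the log2 scale for LPS in macrophages, -0.38 for untreated osteoclasts against untreated macrophages, 0.12 for the cell types under LPS and 0.51 for the interaction, the difference obtained by subtracting the macrophage LPS effect from the osteoclast one. The higher share of the calls for LPS in macrophages was 52.6% as deposited, 18.5% in TPM and 37.0% after quantile normalization. For LPS in osteoclasts it was 62.8%, 43.5% and 38.5%. For untreated osteoclasts against untreated macrophages it was 49.9%, 29.9% and 51.5%, and for the interaction 47.0%, 82.0% and 59.9%. Directions given below for a named gene hold under both other scalings unless stated, while those of unnamed list members are in the counts alone. Since strand use is not known, overlap with exons of an antisense gene leaves a value uncertain, which touches Acp5, Bcl6, Etnk1, Jun, Junb, Mxd3, Mxd4, Nfatc3, Nfkb2, Rragc, Sgsh and Sqstm1, and among the factors Bhlhe40 and Bhlhe41.

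In untreated osteoclasts 4 of the 10 factors were higher than in untreated macrophages (Nfatc1, Tfec, Prdm1 and Bhlhe40) and 6 were lower (Nfatc2, Mitf, Tfeb, Tfe3, Bhlhe41 and Myc). Over all genes tested, 77.8% were called in this comparison, 38.8% higher and 39% lower. In macrophages LPS changed 9 of the 10, with 4 higher (Nfatc2, Mitf, Tfec and Prdm1) and 5 lower (Nfatc1, Tfeb, Bhlhe40, Bhlhe41 and Myc), beside 69.9% of all genes, 36.8% higher and 33.1% lower. The counts were 3 and 7 in TPM and 3 and 6 after quantile normalization, and Nfatc2 changed sign under both. In osteoclasts LPS changed 5 of the 10, with Nfatc1, Mitf and Tfec higher and Nfatc2 and Bhlhe41 lower, beside 17.7% of all genes, 11.1% higher and 6.59% lower. In TPM and after quantile normalization 2 were higher and 3 lower. Under LPS 9 of the 10 differed between the cell types, 4 higher and 5 lower in osteoclasts, beside 83.9% of all genes, 40.9% higher and 43% lower. After quantile normalization the counts were 5 and 5. The interaction was called for 9 of the 10, 5 higher and 4 lower, beside 56.6% of all genes, 26.6% higher and 30% lower. In TPM 6 were higher and 3 lower, and after quantile normalization 6 and 4. These shares of all genes are also the background for the counts over gene lists below, as deposited. The other scalings have their own counts, higher and lower, in TPM and then after quantile normalization. For LPS in macrophages these were 1797 and 7933, then 3051 and 5193 of the 11335 genes. For LPS in osteoclasts they were 940 and 1221, then 947 and 1514. Between untreated cell types they were 2760 and 6457, then 4583 and 4318. For the interaction they were 7175 and 1572, then 4090 and 2734. The comparisons share libraries and are not independent of each other.

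**Figure D1:**
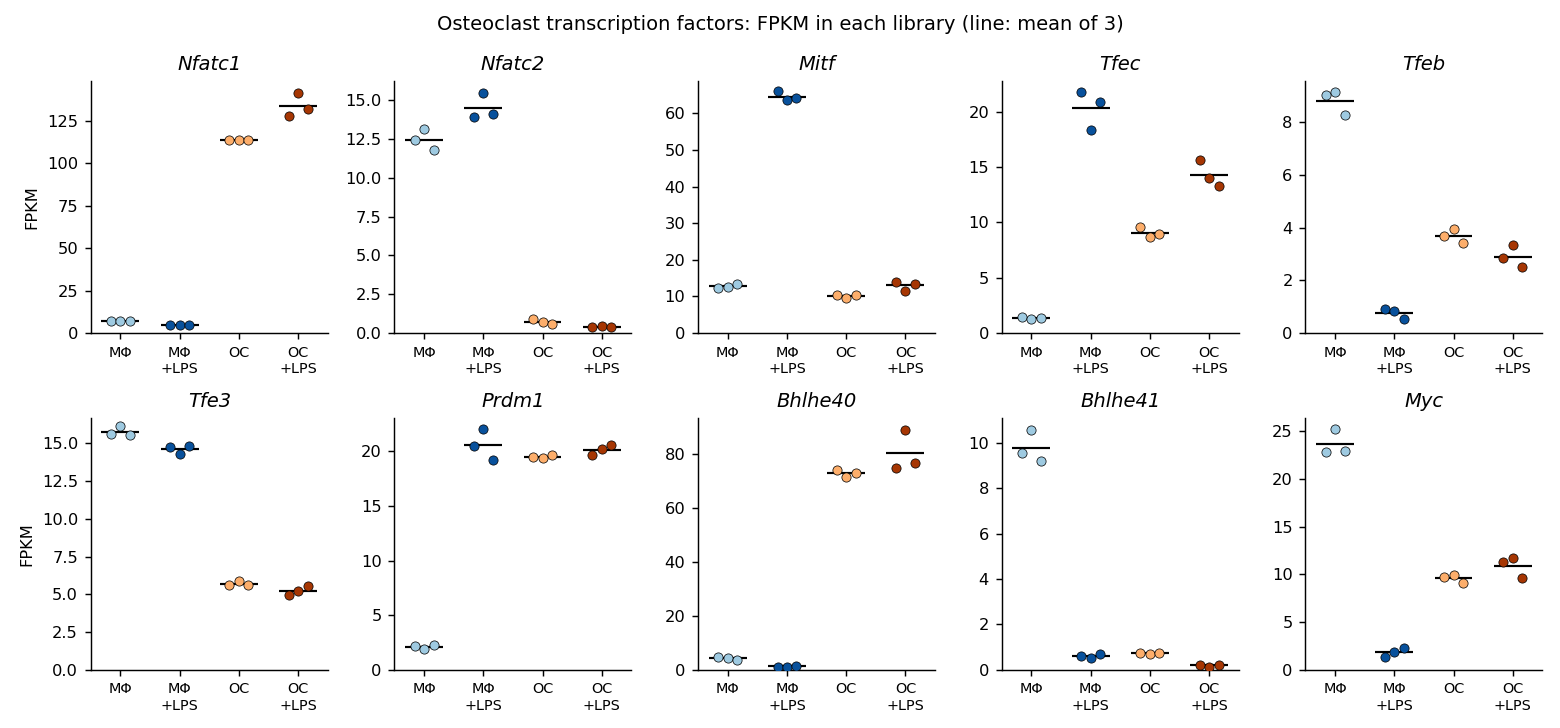
FPKM of each of the 10 factors (y axis, 1 scale per panel) in the 12 libraries, 3 per group (x axis: macrophages, MΦ, and osteoclasts, OC, without or with LPS); points are libraries and the line is the mean of 3. Nfatc1 and Bhlhe40 were high in the osteoclast libraries, Bhlhe41 and Myc were highest in untreated macrophages, Mitf was highest in LPS-treated macrophages, and Prdm1 was low in untreated macrophages alone.

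Nfatc1 (ENSMUSG00000033016, chromosome 18, 80606205 to 80713071, minus strand) encodes the factor known as the master regulator of osteoclasts. The untreated macrophage libraries held 7.01, 6.97 and 7.13 FPKM and the LPS-treated ones 4.75, 4.61 and 4.62 FPKM. The untreated osteoclast libraries held 113.6, 113.5 and 113.7 FPKM and the LPS-treated ones 127.6, 141.4 and 131.6 FPKM. No groups overlapped, and the mean in osteoclasts was 16.1-fold that in macrophages without LPS and 28.7-fold with LPS. The log2 difference between untreated cell types was 3.83 (SE 0.04, limma adjusted p 2.58e-15). LPS lowered Nfatc1 in macrophages by a log2 difference of -0.51 (SE 0.04, limma adjusted p 1.91e-07), or -1.17 in TPM. In osteoclasts Nfatc1 rose with LPS by 0.23 (SE 0.04, limma adjusted p 0.00148), with no call in TPM (0.16, limma adjusted p 0.0551) or after quantile normalization (0.12, limma adjusted p 0.103). The LPS effects differed between the cell types by 0.74 on the log2 scale (SE 0.06, limma adjusted p 3.20e-07).

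Nfatc2 (ENSMUSG00000027544, chromosome 2, 168476410 to 168601657, minus strand) encodes the NFAT protein known to bind the Nfatc1 promoter at the start of differentiation. It ran opposite to Nfatc1, at 12.4, 13.2 and 11.8 FPKM in untreated macrophages and 0.886, 0.733 and 0.606 FPKM in untreated osteoclasts. With LPS the macrophage libraries held 13.96, 15.5 and 14.1 FPKM and the osteoclast libraries 0.396, 0.448 and 0.378 FPKM. All osteoclast libraries lay below all macrophage libraries, and the untreated osteoclast mean was 16.8-fold lower (log2 difference -2.95, SE 0.07, limma adjusted p 2.14e-12). LPS lowered Nfatc2 in osteoclasts 1.82-fold, from between 109 and 173 reads per library to between 73 and 83 reads (log2 difference -0.30, SE 0.07, limma adjusted p 0.00866). The log2(FPKM + 1) scale understates this change, which was -0.86 in limma's voom, a model of log counts, on reads recovered from the FPKM. In macrophages the difference with LPS was 0.21 (SE 0.07, limma adjusted p 0.0173) as deposited but -0.42 in TPM (adjusted p 0.00125) and -0.09 after quantile normalization (adjusted p 0.251), so that its direction depended on the scaling. Without untreated macrophage replicate 3 or LPS-treated macrophage replicate 2 it was 0.17 (limma adjusted p 0.0733) and 0.16 (limma adjusted p 0.0752), and with an offset of 0.1 FPKM 0.22 (limma adjusted p 0.106), with no call in any of these.

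Shares of paralogs within a library do not depend on the scaling between libraries. Nfatc1 made up 22.9% ± 0.625 of the summed FPKM of the 5 NFAT genes in untreated macrophages and 14.1% ± 0.338 in LPS-treated ones (SD, n = 3). In osteoclasts it made up 89.9% ± 0.392 without LPS and 91.9% ± 0.328 with it. Nfatc2 led the family in macrophages, with 40.5% ± 1.89 and 44.1% ± 2.03, and held 0.587% ± 0.110 and 0.280% ± 0.0151 in osteoclasts. Mean FPKM of Nfatc1 was 153-fold that of Nfatc2 in untreated osteoclasts, while Nfatc2 exceeded Nfatc1 by 1.77-fold in untreated macrophages. Nfatc3 was at 6.44, 6.18, 7.15 and 6.44 FPKM on average in untreated macrophages, LPS-treated macrophages, untreated osteoclasts and LPS-treated osteoclasts. Nfat5, the NFAT relative that answers to salt stress, was at 4.71, 7.49, 4.86 and 4.82 FPKM in the same order and rose with LPS in macrophages as deposited (log2 difference 0.58), but was not called in TPM (0.03, limma adjusted p 0.798). Nfatc4 was under 1 FPKM in every group and was not tested.

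**Figure D2:**
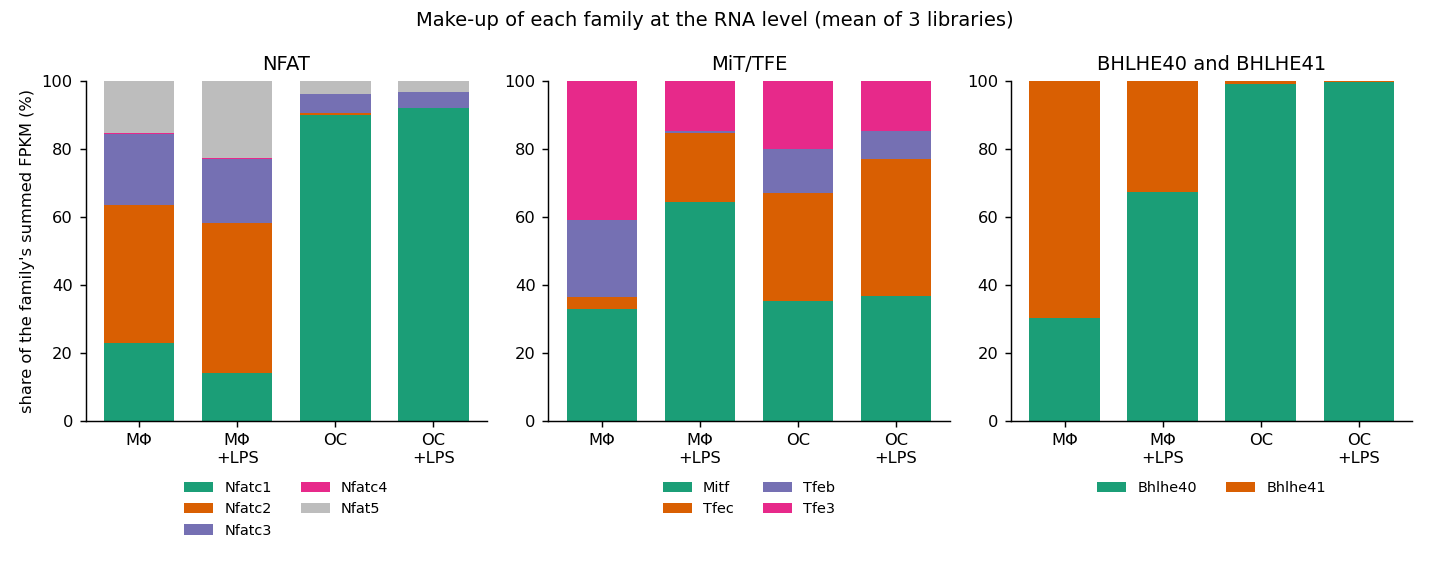
Share of each gene in the summed FPKM of its family (y axis, percent, mean of 3 libraries) in the 4 groups (x axis: macrophages, MΦ, and osteoclasts, OC, without or with LPS), for the NFAT genes, the MiT/TFE genes and the Bhlhe40 and Bhlhe41 pair. Nfatc1 took 89.9% of NFAT FPKM in untreated osteoclasts, and Mitf took 64.4% of MiT/TFE FPKM in LPS-treated macrophages.

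Genes upstream of NFATC1 were taken as a list of RANK, ITAM and calcium signalling genes, of which 18 of 19 were tested, all but Camk4. Untreated osteoclasts had 8 of the 18 higher and 6 lower than untreated macrophages, with a median log2 difference of 0.01 beside 0 for all genes. That share of calls was near the 77.8% of all genes. In TPM the counts were 6 and 11. The ITAM-coupled receptor gene Oscar was at 3 reads or fewer in each macrophage library and at 170.5 FPKM on average in untreated osteoclasts, at least 2412-fold higher by a floor of 3 reads per library. Traf6, the adapter of RANK, was higher (5.90 and 14.4 FPKM), as was Syk, the kinase that docks on ITAMs (21.98 and 51.5 FPKM). Trem2, another ITAM-coupled receptor, was lower, at 124.8 FPKM in untreated macrophages against 10.2 FPKM in untreated osteoclasts. Fos, the AP-1 subunit needed for Nfatc1 induction, was at 46.7 FPKM in untreated macrophages, 25.5 FPKM with LPS, 99.1 FPKM in untreated osteoclasts and 100.5 FPKM with LPS. It fell with LPS in macrophages (log2 difference -0.85) and not detectably in osteoclasts (0.02). LPS raised 12 and lowered 1 of the 18 in macrophages as deposited, but 3 and 9 in TPM and 8 and 8 after quantile normalization. Rcan1, a calcineurin inhibitor that is itself a calcineurin-NFAT target, rose with LPS from 9.53 to 98.6 FPKM in macrophages (log2 difference 3.24) and from 66.2 to 80.5 FPKM in osteoclasts (0.28), where it was not called after quantile normalization (0.17, limma adjusted p 0.0560). The RANK gene Tnfrsf11a rose in macrophages from 36.1 to 63.0 FPKM and fell in osteoclasts from 56.4 to 50.6 FPKM.

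Of the genes known as NFATC1 or MITF targets in osteoclasts, 14 of 14 were higher in osteoclasts, without LPS and with it. The list was chosen for that cell type, so its direction is no independent evidence. Their median log2 difference was 6.73 without LPS beside 0 for all genes, and the median log2 ratio of mean FPKM, with Oscar and Calcr entered at their lower bounds, was 9.33. Ctsk, the collagen-degrading protease cathepsin K, was at 15541 FPKM in untreated and 15525 FPKM in LPS-treated osteoclasts. For LPS in osteoclasts 2 of the 14 were called, a share near the 17.7% of all genes, both higher: Calcr, the calcitonin receptor gene (21.2 to 27.0 FPKM, log2 difference 0.34), and Car2, the carbonic anhydrase that supplies protons (117.3 to 166.6 FPKM, log2 difference 0.50). With an offset of 0.1 FPKM Car2 was not called (0.51, limma adjusted p 0.0567), voom called 3 genes, all higher, and quantile normalization called 2 higher and 3 lower. In macrophages LPS raised 6 and lowered 5 of the 14, or 4 and 7 in TPM. Acp5, the tartrate-resistant phosphatase TRAP, rose there from 0.950 to 14.6 FPKM, and Tcirg1, a proton pump subunit, from 68.7 to 155.5 FPKM.

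Mitf (ENSMUSG00000035158, chromosome 6, 97807052 to 98021349, plus strand) is transcribed from several start sites that share their last exons, and the values sum them all. RefSeq promoter windows on build GRCm38.p6, from 250 bases before to 50 after a start site, were held for 7 of the 10 genes, 13 windows in all. None was found for Nfatc1, Bhlhe40 or Myc. Motifs were searched on both strands: the E-box CACGTG, which MiT/TFE, MYC and BHLHE40 proteins share, the cAMP element TGACGTCA, the AP-1-like pattern TGANTCA, the NFAT core GGAAAA, the STAT site TTCNNNGAA, the kappaB site GGANTTTCC and the PU.1 core GAGGAA. The AP-1-like pattern allows any middle base and is looser than the AP-1 site. The NFAT core can overlap the PU.1 core, and a kappaB site whose N is T holds it whole, but none of the matches shown overlap. Below are the windows of Mitf with a match, with Tfec and Prdm1, which rose with Mitf in LPS-treated macrophages. Capitals mark the motif matches.
Mitf, chr6:97929567-97929866, plus strand: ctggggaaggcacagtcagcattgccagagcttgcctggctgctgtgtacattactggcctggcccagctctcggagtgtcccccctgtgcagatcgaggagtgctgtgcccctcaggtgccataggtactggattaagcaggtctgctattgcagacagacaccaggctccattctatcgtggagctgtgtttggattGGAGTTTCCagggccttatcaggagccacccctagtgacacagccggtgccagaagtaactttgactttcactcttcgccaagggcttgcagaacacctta
Mitf, chr6:97991533-97991832, plus strand: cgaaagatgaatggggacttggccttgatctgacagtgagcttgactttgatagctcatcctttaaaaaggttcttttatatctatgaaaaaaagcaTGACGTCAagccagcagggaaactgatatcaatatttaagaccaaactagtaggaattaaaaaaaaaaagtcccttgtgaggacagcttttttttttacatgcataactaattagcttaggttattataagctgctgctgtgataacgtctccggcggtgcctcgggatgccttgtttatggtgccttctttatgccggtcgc
Tfec, chr6:16898392-16898691, minus strand: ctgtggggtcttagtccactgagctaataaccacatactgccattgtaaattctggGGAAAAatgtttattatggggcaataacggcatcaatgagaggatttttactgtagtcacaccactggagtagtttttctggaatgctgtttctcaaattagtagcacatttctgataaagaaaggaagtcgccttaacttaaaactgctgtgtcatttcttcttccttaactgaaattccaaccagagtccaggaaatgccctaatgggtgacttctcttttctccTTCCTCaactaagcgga
Prdm1, chr10:44458699-44458998, minus strand: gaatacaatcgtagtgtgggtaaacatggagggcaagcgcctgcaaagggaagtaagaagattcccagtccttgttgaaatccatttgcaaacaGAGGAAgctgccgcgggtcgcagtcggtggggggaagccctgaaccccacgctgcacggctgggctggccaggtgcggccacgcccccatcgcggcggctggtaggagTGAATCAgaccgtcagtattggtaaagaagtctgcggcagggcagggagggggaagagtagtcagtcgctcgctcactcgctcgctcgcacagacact
The first Mitf window held a kappaB match at -51 from the start site, and 1.25% of the 32851 mouse windows held one. The second held the cAMP element at -153, present in 1.79% of windows. Tfec held the NFAT core at -194 and the PU.1 core at 34, present in 23.4% and 28.3% of windows. Prdm1 held an AP-1-like match, TGAATCA, at -48 and the PU.1 core at -156, and 7.81% of windows held an AP-1-like match with any middle base. No motif was common to the windows of all 3 genes. Windows of Tfe3, whose LPS difference in macrophages was not called as deposited, held a kappaB match with the same letters as that of Mitf (at 16) and, in another window, an AP-1-like match with the same letters as that of Prdm1 (at 35). These matches are letters in a window and were not tested for binding.

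Mitf itself was at 12.2, 12.6 and 13.4 FPKM in untreated macrophages and at 66.0, 63.7 and 64.1 FPKM with LPS. The osteoclast libraries held 10.4, 9.47 and 10.4 FPKM without LPS and 13.97, 11.5 and 13.5 FPKM with it. LPS-treated macrophages stood alone at the top, LPS-treated osteoclasts overlapped untreated macrophages, and untreated osteoclasts were lowest. LPS raised Mitf 5.07-fold in macrophages (log2 difference 2.26, SE 0.07, limma adjusted p 2.37e-11) and 1.29-fold in osteoclasts (0.33, SE 0.07, limma adjusted p 0.00428). The interaction was -1.92 (SE 0.09, limma adjusted p 7.44e-09). Untreated osteoclasts were below untreated macrophages by -0.31 on the log2 scale (SE 0.07, limma adjusted p 0.000995), or -0.74 in TPM.

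Tfec (ENSMUSG00000029553, chromosome 6, 16833373 to 16898441, minus strand) encodes the MiT/TFE member known as restricted to myeloid cells. It was at 1.41, 1.23 and 1.32 FPKM in untreated macrophages and at 21.8, 18.4 and 20.9 FPKM with LPS, a 15.4-fold rise (log2 difference 3.20, SE 0.07, limma adjusted p 2.78e-12). The osteoclast libraries held 9.58, 8.66 and 8.96 FPKM without LPS and 15.7, 14.04 and 13.3 FPKM with it, a 1.58-fold rise (0.60, SE 0.07, limma adjusted p 9.69e-05). No groups overlapped, and the order ran from LPS-treated macrophages through LPS-treated and untreated osteoclasts down to untreated macrophages. Untreated osteoclasts exceeded untreated macrophages 6.87-fold, while under LPS they were lower by -0.48 on the log2 scale (SE 0.07, limma adjusted p 5.45e-05). After quantile normalization that value was -0.25.

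Tfeb (ENSMUSG00000023990, chromosome 17, 47737030 to 47792419, plus strand) encodes the regulator of lysosome genes that is held in the cytoplasm while mTORC1 is active. It moved opposite to Mitf and Tfec in macrophages, from 9.03, 9.14 and 8.27 FPKM without LPS to 0.898, 0.827 and 0.540 FPKM with it. These were between 1044 and 1218 reads per library without LPS and between 43 and 70 reads with it. The fall was 11.7-fold (log2 difference -2.49, SE 0.09, limma adjusted p 2.23e-10), or -3.57 on the log2 scale in voom. Osteoclast libraries held 3.67, 3.95 and 3.42 FPKM without LPS and 2.84, 3.33 and 2.51 FPKM with it. All 3 LPS-treated osteoclast libraries lay below the untreated ones, but the difference of -0.27 was not called (SE 0.09, limma adjusted p 0.0713). It was called in voom (-0.36, adjusted p 0.0222), with a replicate block (-0.27, limma adjusted p 0.0154), without LPS-treated osteoclast replicate 2 (-0.35, limma adjusted p 0.0266) and without LPS-treated macrophage replicate 3 (-0.27, limma adjusted p 0.0421). The interaction was 2.22 (SE 0.13, limma adjusted p 4.38e-08). Osteoclasts were therefore below macrophages without LPS (-1.07) and above them with LPS (1.15, or 1.95 in voom).

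Tfe3 (ENSMUSG00000000134, chromosome X, 7762560 to 7775202, plus strand) encodes a close relative of TFEB. It differed by cell type: 15.6, 16.1 and 15.6 FPKM in untreated macrophages, 14.8, 14.3 and 14.8 FPKM with LPS, 5.62, 5.88 and 5.61 FPKM in untreated osteoclasts and 4.98, 5.21 and 5.52 FPKM with LPS. The untreated osteoclast mean was 2.77-fold lower (log2 difference -1.32, SE 0.04, limma adjusted p 3.81e-11). The LPS differences were -0.10 in both cell types (SE 0.04 each, limma adjusted p 0.0531 in macrophages and 0.118 in osteoclasts), and neither was called. The macrophage difference was called in TPM (-0.74), after quantile normalization (-0.44), in voom (-0.11, adjusted p 0.0393), in a fit of only those groups (-0.10, limma adjusted p 0.0339) and without LPS-treated osteoclast replicate 1 or 3 (limma adjusted p 0.0414 and 0.0411). The osteoclast difference was called in TPM (-0.18, limma adjusted p 0.0383) and after quantile normalization (-0.14, limma adjusted p 0.0325). The interaction was -0.004 as deposited, with a 95% interval from -0.14 to 0.13 (limma adjusted p 0.962), but 0.56 in TPM (limma adjusted p 4.59e-05) and 0.29 after quantile normalization (limma adjusted p 0.00105).

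The make-up of the MiT/TFE family differed in all 4 groups. Summed FPKM of the 4 genes was 38.7 ± 0.439 in untreated macrophages, 100.3 ± 3.10 with LPS, 28.5 ± 0.677 in untreated osteoclasts and 35.4 ± 1.79 with LPS (SD, n = 3). Sums, unlike shares, depend on the scaling, and in TPM the sum was 149.5 ± 1.30 in untreated macrophages and 247.7 ± 6.02 with LPS. Untreated macrophages held mainly Tfe3 (40.8% ± 0.448) and Mitf (33.0% ± 1.58), with Tfeb at 22.8% ± 1.197 and Tfec at 3.42% ± 0.271. With LPS, Mitf took 64.4% ± 0.963, Tfec 20.3% ± 1.16, Tfe3 14.6% ± 0.277 and Tfeb 0.753% ± 0.186. Untreated osteoclasts held Mitf at 35.3% ± 1.36 and Tfec at 31.8% ± 0.878, then Tfe3 at 20.01% ± 0.943 and Tfeb at 12.9% ± 1.07. LPS-treated osteoclasts held Tfec at 40.4% ± 1.98 and Mitf at 36.6% ± 2.63, then Tfe3 at 14.8% ± 1.34 and Tfeb at 8.19% ± 1.39. Mean FPKM of Mitf was 1.45-fold that of Tfeb in untreated macrophages and 85.5-fold with LPS. The shares are a description, with no test.

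Of a list of 12 genes known to control MiT/TFE proteins, 10 were tested. It holds genes for folliculin, the Rag GTPases and mTORC1, which set where TFEB and TFE3 sit in the cell, and also the lysosomal channel gene Mcoln1, the 14-3-3 gene Ywhaz and the co-activator gene Ppargc1a. In macrophages 3 rose with LPS (Rraga, Mtor and Ywhaz) and 6 fell, with a median log2 difference of -0.34 beside 0.02 for all genes. Of all genes 36.8% were called higher there and 33.1% lower. In TPM the counts were 1 and 8 and after quantile normalization 1 and 6. Mtor changed sign in TPM (0.39 as deposited and -0.18 in TPM, limma adjusted p 0.0418). Rraga was not called under either scaling, nor Ywhaz after quantile normalization. Folliculin and its partners were among those that fell: Flcn from 8.97 to 1.48 FPKM (log2 difference -2.02), Fnip2 from 24.3 to 8.26 FPKM (-1.45) and Fnip1 from 8.34 to 3.79 FPKM (-0.96). In osteoclasts 4 of the 10 fell and none rose: Fnip2 (-0.42), Flcn (-0.40), Fnip1 (-0.31) and Rragc (-0.13). With an offset of 0.1 FPKM Flcn was not called there (-0.43, limma adjusted p 0.0626). Genes with CLEAR elements, the lysosomal targets of TFEB and TFE3, had 14 of 18 higher and 4 lower in untreated osteoclasts, with a median of 0.74 beside 0 for all genes. In TPM the counts were 12 and 4 with a median of 0.37, and after quantile normalization 13 and 4. Sqstm1 changed sign under both (0.35 as deposited, -0.07 in each) and Sgsh in TPM (0.28 and -0.11), none of these being called after rescaling. LPS raised 8 and lowered 5 of the 18 in macrophages as deposited, but 1 and 17 in TPM and 1 and 15 after quantile normalization. Of all 11335 genes, 1797 were higher and 7933 lower there in TPM, and 3051 and 5193 after quantile normalization. Sqstm1, the autophagy receptor p62, rose with LPS from 175.2 to 1017 FPKM in macrophages (2.53) and from 223.3 to 522.3 FPKM in osteoclasts (1.22), and it was the 1 gene of the list called in osteoclasts as deposited. In TPM 5 others were called lower there, and after quantile normalization 7. Sgsh, a heparan sulfate hydrolase, fell in macrophages from 13.2 to 4.43 FPKM (-1.39).

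**Figure D3:**
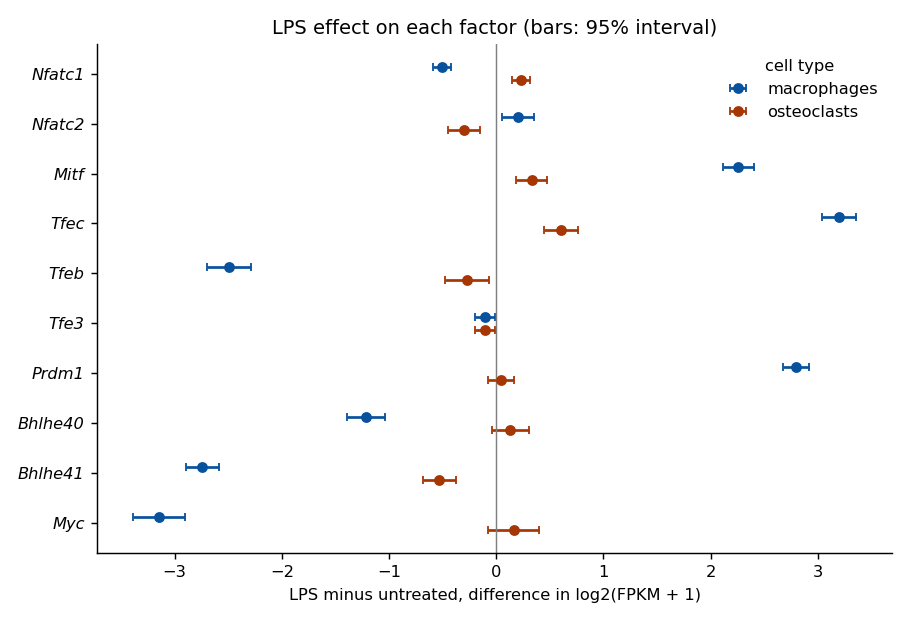
LPS-treated minus untreated difference in log2(FPKM + 1) (x axis) for each of the 10 factors (y axis) in macrophages (blue) and osteoclasts (red); points are limma estimates from 3 libraries a group and bars are 95% confidence intervals. The macrophage estimates run from -3.14 for Myc to 3.20 for Tfec, and the osteoclast estimates from -0.53 for Bhlhe41 to 0.60 for Tfec.

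Prdm1 (ENSMUSG00000038151, chromosome 10, 44437177 to 44528501, minus strand) was at 2.18, 1.89 and 2.25 FPKM in untreated macrophages. With LPS the macrophage libraries held 20.5, 22.1 and 19.2 FPKM. Untreated osteoclasts held 19.5, 19.4 and 19.7 FPKM and LPS-treated osteoclasts 19.6, 20.2 and 20.5 FPKM. These 3 groups overlapped and untreated macrophages lay apart. LPS raised Prdm1 9.78-fold in macrophages (log2 difference 2.80, SE 0.06, limma adjusted p 9.55e-13), and untreated osteoclasts exceeded untreated macrophages 9.25-fold (2.72, SE 0.06, limma adjusted p 8.66e-13). In osteoclasts the difference with LPS was 0.04, with a 95% interval from -0.08 to 0.17 (limma adjusted p 0.660). The cell types under LPS differed by -0.03, with an interval from -0.15 to 0.09 (limma adjusted p 0.616), or 0.19 after quantile normalization, where it was called (limma adjusted p 0.00575). The interaction was -2.75 (SE 0.08, limma adjusted p 1.28e-10). The plasma cell gene Sdc1 was also higher in osteoclast libraries (153.7 to 182.9 FPKM) than in macrophage libraries (4.08 to 8.99 FPKM). Other B and plasma cell markers did not follow it: Jchain, Mzb1 and Cd79a were at most 0.134 FPKM in any library, and Cd79b was between 0.438 and 1.13 FPKM in macrophages and at 0 in osteoclasts.

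Known repressors of osteoclast formation, which include the PRDM1 targets Irf8 and Bcl6, were all lower in osteoclasts: 8 of 8 without LPS and 8 of 8 with LPS. The list was chosen for this role and with earlier results of these data known, so its direction is no independent evidence. Their median log2 difference without LPS was -2.85 beside 0 for all genes. In macrophages LPS lowered 6 of the 8 and raised 2. Irf8, which restrains NFATC1, rose there from 22.7 to 95.1 FPKM (2.02), and Rbpj, the Notch pathway factor, from 32.5 to 62.3 FPKM (0.92). Bcl6 fell in macrophages from 19.6 to 11.3 FPKM (-0.75) and rose in osteoclasts from 2.03 to 2.77 FPKM (0.32). Id1, an inhibitor of basic helix-loop-helix proteins, fell in macrophages from 113.9 to 4.95 FPKM (-4.27). In LPS-treated osteoclasts it was at 3 reads or fewer in each library, at least 13.7-fold lower than in untreated osteoclasts by the floor of 3 reads per library.

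Bhlhe40 (ENSMUSG00000030103, chromosome 6, 108660629 to 108666925, plus strand) encodes a repressor that is also a clock gene product. It was at 4.54, 4.52 and 3.68 FPKM in untreated macrophages, 1.15, 1.196 and 1.44 FPKM with LPS, 74.1, 71.5 and 72.8 FPKM in untreated osteoclasts and 74.9, 88.9 and 76.4 FPKM with LPS. The untreated osteoclast mean was 17.1-fold the macrophage mean (log2 difference 3.82, SE 0.08, limma adjusted p 1.02e-12), and under LPS the ratio was 63.5. LPS lowered Bhlhe40 3.37-fold in macrophages (-1.21, SE 0.08, limma adjusted p 4.44e-08), or -2.08 on the log2 scale in TPM. In osteoclasts all 3 LPS-treated libraries lay above the untreated ones, but the difference of 0.13 was not called (SE 0.08, limma adjusted p 0.299). The interaction was 1.34 (SE 0.11, limma adjusted p 8.99e-07), or 2.14 in TPM. Bhlhe40 shares exon sequence with 0610040F04Rik on the opposite strand, which held at most 5 reads in any library.

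Bhlhe41 (ENSMUSG00000030256, chromosome 6, 145858243 to 145865558, minus strand) encodes the closest relative of BHLHE40, and its promoter window held the E-box, which both proteins bind, at -153 from the start site. The window is shown with the E-box in capitals, a match found in 7.15% of windows.
Bhlhe41, chr6:145865371-145865670, minus strand: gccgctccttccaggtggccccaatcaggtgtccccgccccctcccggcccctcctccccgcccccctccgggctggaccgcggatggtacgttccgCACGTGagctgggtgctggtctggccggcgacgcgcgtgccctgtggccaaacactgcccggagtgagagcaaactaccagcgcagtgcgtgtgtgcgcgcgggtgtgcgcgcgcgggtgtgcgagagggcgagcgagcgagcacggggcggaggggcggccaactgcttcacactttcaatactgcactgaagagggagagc
Bhlhe41 was at 9.55, 10.6 and 9.19 FPKM in untreated macrophages and 0.606, 0.528 and 0.699 FPKM with LPS, a 15.996-fold fall (log2 difference -2.74, SE 0.07, limma adjusted p 6.70e-12). Untreated osteoclasts held 0.718, 0.678 and 0.753 FPKM, overlapping LPS-treated macrophages. LPS-treated osteoclasts were lowest, at 0.218, 0.125 and 0.220 FPKM, or between 13 and 29 reads per library. That was a 3.81-fold fall in osteoclasts, which the log2(FPKM + 1) scale gives as -0.53 (SE 0.07, limma adjusted p 2.05e-04) and voom as -1.92. The interaction was 2.21 (SE 0.10, limma adjusted p 3.52e-09). The antisense gene Gm43909, which shares exon sequence with Bhlhe41, held at most 14 reads.

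The leading gene of the pair differed between the cell types without LPS. Bhlhe41 took 69.8% ± 1.83 of the summed FPKM of both in untreated macrophages, and Bhlhe40 took 67.4% ± 1.95 in LPS-treated macrophages, 99.0% ± 0.0441 in untreated osteoclasts and 99.8% ± 0.0853 in LPS-treated osteoclasts (SD, n = 3). The sum itself was 14.02 ± 1.12, 1.87 ± 0.229, 73.5 ± 1.31 and 80.3 ± 7.64 FPKM in the order untreated macrophages, LPS-treated macrophages, untreated osteoclasts and LPS-treated osteoclasts. In TPM it was 54.2 ± 3.75 in untreated and 4.62 ± 0.522 in LPS-treated macrophages. All 6 osteoclast libraries held between 72.2 and 89.0 FPKM of both genes in sum, and the 3 LPS-treated macrophage libraries between 1.72 and 2.14 FPKM.

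Myc (ENSMUSG00000022346, chromosome 15, 61985391 to 61990374, plus strand) was highest in untreated macrophages, at 22.8, 25.2 and 22.9 FPKM. With LPS the macrophage libraries held 1.30, 1.90 and 2.25 FPKM, or between 45 and 86 reads. Osteoclast libraries held 9.69, 9.93 and 9.10 FPKM without LPS and 11.3, 11.7 and 9.64 FPKM with it, and these groups overlapped. LPS lowered Myc 13.03-fold in macrophages (log2 difference -3.14, SE 0.11, limma adjusted p 1.11e-10). In osteoclasts the difference was 0.16, with a 95% interval from -0.08 to 0.40 (limma adjusted p 0.353). The interaction was 3.31 (SE 0.15, limma adjusted p 5.46e-09), the largest in size among the 10. Osteoclasts were 2.47-fold below macrophages without LPS (-1.22, SE 0.11, limma adjusted p 5.36e-07) and 5.98-fold above them with LPS (2.08, SE 0.11, limma adjusted p 2.35e-09).

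MYC works as a dimer with MAX, and MXD and MNT proteins compete for that partner. Of 10 such genes 9 were tested, all but Mycn, and in macrophages LPS raised 4 and lowered 3, or 4 and 5 in TPM. Mxd1 rose from 0.577 to 22.8 FPKM (log2 difference 3.91), Mycl from 0.126 to 3.74 FPKM (2.07), Max from 15.998 to 45.05 FPKM (1.44) and Mga from 4.31 to 8.16 FPKM (0.79). Mnt fell from 5.35 to 0.672 FPKM (-1.93), Mxd3 from 2.48 to 0.492 FPKM (-1.22) and Mxd4 from 5.85 to 2.88 FPKM (-0.82). In osteoclasts Mycl rose from 0.892 to 3.76 FPKM (1.32) and Mxd1 from 1.199 to 1.95 FPKM (0.42), while Mxd4 (-0.39) and Mnt (-0.30) fell. Of 13 genes known as MYC targets in ribosome making and nucleotide and polyamine synthesis, LPS raised 6 and lowered 6 in macrophages as deposited, but 2 and 10 in TPM and 3 and 8 after quantile normalization. Their median log2 difference as deposited was 0.10 beside 0.02 for all genes. Odc1, the first enzyme of polyamine synthesis, rose from 42.5 to 178.2 FPKM (2.04) in the macrophages in which Myc fell. In osteoclasts 5 of the 13 rose and none fell, or 2 and none under both other scalings.

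**Figure D4:**
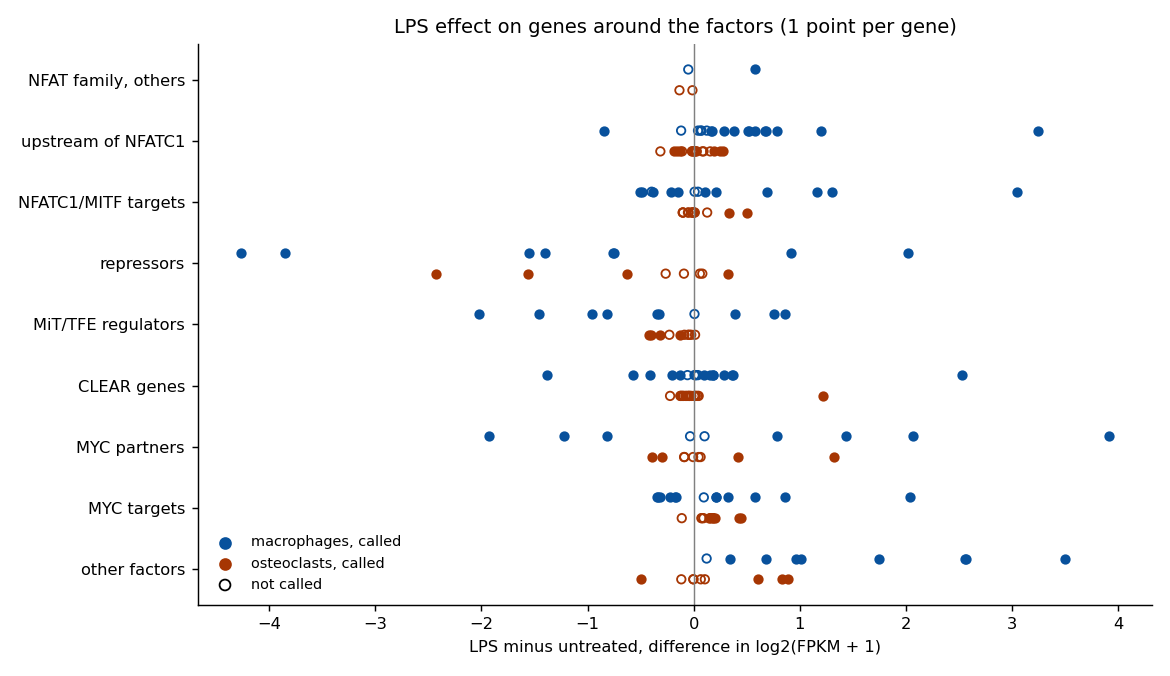
LPS-treated minus untreated difference in log2(FPKM + 1) (x axis) for the genes around the factors (y axis: 9 lists), 1 point per gene, in macrophages (blue) and osteoclasts (red); filled points were called by limma and open points were not. In macrophages the points reach from -4.27 for Id1 to 3.91 for Mxd1, and in osteoclasts up to 1.32 for Mycl.

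Other osteoclast transcription factors and co-activators were compared as a list of 9. It was chosen for that cell type and with earlier results of these data known, so its directions are no independent evidence. In untreated osteoclasts 8 of the 9 were higher and 1, Junb, lower than in untreated macrophages, or 7 and 1 in TPM, where Relb had a difference of -0.004 in place of 0.38. Fosl2, an AP-1 subunit, was at 5.44 and 84.3 FPKM, and Ppargc1b, a co-activator of mitochondrial genes, at 1.54 and 21.98 FPKM. In macrophages LPS raised 8 and lowered none, or 6 and 2 in TPM and 7 and 1 after quantile normalization. Nfkb2 rose from 23.2 to 272.9 FPKM (log2 difference 3.50) and Relb from 9.56 to 61.5 FPKM (2.57), both subunits of the alternative NF-κB pathway. In osteoclasts Relb (0.89), Nfkb2 (0.83) and Junb (0.60) rose and Jun (-0.50) fell. The interaction was negative and called for 9 of 9, with a median of -0.91 beside -0.01 for all genes. It was negative and called for 7 of 9 under each of the other scalings, and in TPM Esrra changed sign (-0.35 as deposited and 0.20 in TPM).

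Genes with the pattern most like each factor were ranked over the 4 group means of log2(FPKM + 1), each centred on its own mean, by the root mean square difference. Mitf was closest to Etnk1, an ethanolamine kinase gene (difference 0.04). Tfe3 was closest to Med14, a Mediator subunit gene (0.007), Nfatc2 to the metal transporter gene Slc11a1 (0.07) and Bhlhe41 to Ppp1r3b, a glycogen-targeting phosphatase subunit gene (0.08). Tfeb was closest to Tmem206 (0.10), Nfatc1 to Ankrd13b (0.14), Myc to the phosphatase gene Dusp7 (0.15) and Prdm1 to Upp1, a uridine phosphorylase gene (0.16). Bhlhe40 was closest to the chemokine receptor gene Ccr1 (0.18) and Tfec to Atp2b4, a calcium pump gene (0.21), with Rcan1 next (0.22). Nudt22 was among the 3 closest genes of both Nfatc1 and Bhlhe40, and Atp2b4 among those of both Tfec and Prdm1. The measure rests on 4 points per gene and gives no test. Because of the added 1, genes at different FPKM can rank as alike while their folds differ. Between untreated macrophages and untreated osteoclasts, Slc11a1 fell from 127.1 to 15.7 FPKM and Nfatc2 from 12.46 to 0.742 FPKM. With LPS in macrophages, Upp1 rose from 0.0305 to 4.398 FPKM and Prdm1 from 2.108 to 20.62 FPKM.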

How the data were processed

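RNA was measured in 12 libraries of 4 groups, taken from the library names in the labels. The authors deposited FPKM values for 54532 Ensembl genes. Per the submitters' processing notes, fastp, STAR, featureCounts and DESeq2 were used with build mm10. Their versions and roles, the annotation and the use of strand are not given in the sources used here. The FPKM denominators equalled median-of-ratios size factors times the geometric mean of the read totals, within 2.54e-07%, and whole reads (tolerance 0.02) were recovered for 100% of the 25854 genes above 0. Merged exons of GENCODE M21 gave whole reads for 96.8% of those genes, and positions are from that annotation.

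Genes of at least 1 FPKM in at least 3 libraries were tested with R 4.3.3 and its limma package, version 3.58.1 (eBayes with trend), on log2(FPKM + 1), two-sided, with all 12 libraries and 4 group means in 1 fit. Benjamini-Hochberg adjustment ran over all 11335 genes. Groups with 3 reads or fewer in each library count as at the floor. Floors and read counts cover counting error only.

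The 10 genes, the 9 gene lists, the 8 marker lists, the motifs and the tests were chosen with earlier results of these data known. All 10 genes are named, with genes of the lists and the 3 most alike genes of each factor, except that some list genes are not reported here. Of the marker lists, erythroid genes were at most 0.171 FPKM in sum, neutrophil genes at most 12.3 FPKM, dendritic cell genes at most 6.35 FPKM (Xcr1 in LPS-treated macrophages), T cell genes at most 4.04 FPKM and B and plasma cell genes at most 183.0 FPKM (Sdc1 in osteoclasts).

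Alternatives were an offset of 0.1, TPM, quantile normalization, no filter, a filter on means of 5 FPKM, a fit to only the compared groups, a replicate block, no variance trend, leaving out each library, and shares of reads. Limma's voom on the recovered reads was chosen after seeing the data. Pairing by replicate number was not detected, and whether samples were paired is not given in the sources used here. On simulated data, 99% of 200 genes changed 2-fold among 10708 were recovered for LPS in macrophages and 95.5% for the interaction, with 3.88% and 5.45% of calls false. Those changes were in LPS-treated macrophages alone, evenly up and down, with the same dispersion for every gene and the true scaling. In the data 7921 of 11335 genes were called for LPS in macrophages, so these rates may not hold for the data.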

Additional observations from a re-analysis of the deposited data

Results flagged for a closer look

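The LPS effect of 9 of the 10 factors differed between osteoclasts and macrophages by limma's interaction term, beside 56.6% of all genes tested. The LPS effect in osteoclasts exceeded that in macrophages, on the log2(FPKM + 1) scale, by 3.31 for Myc, 2.22 for Tfeb, 2.21 for Bhlhe41, 1.34 for Bhlhe40 and 0.74 for Nfatc1. It was below that in macrophages, with an interaction of -2.75 for Prdm1, -2.59 for Tfec, -1.92 for Mitf and -0.51 for Nfatc2. The value for Nfatc2 was not called in TPM (-0.14, limma adjusted p 0.338). The added 1 affects these sizes. In voom they were 3.89 for Myc, 3.21 for Tfeb, 2.08 for Bhlhe41, 1.88 for Bhlhe40 and 0.83 for Nfatc1. Voom gave -3.25 for Prdm1, -3.28 for Tfec, -1.98 for Mitf and -1.09 for Nfatc2. For Myc, Tfeb, Bhlhe41 and Bhlhe40 the macrophage effect was a fall, and for Prdm1, Tfec and Mitf it was a rise.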

How the results depend on the processing

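Of 1030 comparisons of a factor's log2 difference with an alternative, 997 kept direction and call, 6 lost the call, 12 gained it and 15 reversed. Reversed values were Nfatc2 with LPS in macrophages (-0.42 in TPM, -0.0915 after quantile normalization), Prdm1 with LPS in osteoclasts (-0.0253 and -0.0365), Prdm1 between LPS-treated cell types (0.12 and 0.19) and the Tfe3 interaction (0.56 and 0.29). When leaving out 1 library, the last 2 ranged from -0.0772 to 0.0170 (reversed without LPS-treated macrophage replicate 2) and from -0.0363 to 0.0256 (reversed in 6 of 12 fits). The cause was not tested. With a filter on means of 5 FPKM, which leaves fewer genes to test, 4851 genes were called for LPS in macrophages, 5427 between untreated cell types, 5694 between LPS-treated cell types and 4018 for the interaction. That filter leaves no value for Bhlhe41 or Tfeb. Leaving out 1 library gave 7500 to 8012, 1432 to 2031, 8495 to 8874, 9307 to 9488 and 6049 to 6345 calls for LPS in macrophages, LPS in osteoclasts, the untreated cell types, the LPS-treated cell types and the interaction, and 8 to 10, 5 to 6, 10 to 10, 9 to 9 and 9 to 9 of the factors. Samples with the same replicate number did not deviate together (18 correlations between -0.07 and 0.10). With the replicate block, 7914, 1930, 8787, 9512 and 6422 genes were called in the same order, and of the factors' calls it changed that of Tfeb in osteoclasts alone. Replacing FPKM by reads moved 29 of 32 family shares by more than 1 SD, since reads also count gene length. Depth limits Bhlhe41 in LPS-treated osteoclasts, at 13 to 29 reads, and Tfeb and Myc in LPS-treated macrophages, at 43 to 70 and 45 to 86 reads.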
